A study of Sesamum indicum with 195 samples.

Results

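The 200 genes described here were those of the sesame root whose transcripts stood furthest below the control during waterlogging and were still far below it after drainage. They were chosen from 18178 genes with a mean of at least 1 TPM (a transcript's share of the RNA in a sample, corrected for gene length) over all samples, out of 20271 genes in the table. For each genotype and time point, the log2(mean TPM + 1) of the 3 stressed replicates was set against that of the 3 control replicates. W is the mean of this difference at 4, 8, 12, 16, 20, 24 and 32 h of waterlogging over both genotypes, and D is its mean at 40, 44 and 48 h, after the water was drained at 36 h. A total of 911 genes had a W of at most -2 and 432 had a D of at most -2. Both thresholds were met by 287 genes, and the 200 with the lowest W were taken. W and D are therefore given as a description only, and tests were kept to samples or contrasts that the rule did not use.

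Root samples came from flowering plants of Sesamum indicum grown in pots in a greenhouse, of the genotypes ZZM2541 (R2G), which tolerates waterlogging, and Ezhi No. 2 (EG), which is sensitive to it. Plants of both were sampled without waterlogging (control, 60 samples), before it (0 h, 6 samples), during it (2 to 36 h, 90 samples) and after drainage (38 to 48 h, 36 samples), with 3 samples from separate pots per condition. A further 3 samples came from EG plants at 48 h that the labels mark as wilting and the study describes as dead. They did not enter the rule and were kept apart, and they are called wilting plants here after the labels. The labels count the 0 h samples as control, whereas the study draws them as the start of the waterlogging series, so they formed a group of their own.

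Waterlogging fills the air spaces of the soil and cuts the supply of oxygen to the root. Plant cells without oxygen make little ATP by respiration, turn to glycolysis and fermentation, and reduce the transcription and translation of many genes that serve growth, transport and the making of cell walls. Drainage returns oxygen to the root, often together with oxidative stress and a shortage of water in the shoot. Genes that fall without oxygen may return quickly, slowly or not at all in the hours after drainage, and the genes described here were picked as those that had not returned at the time points of the rule.

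Described as genes without recovery, they would be described rightly only in part. Between the last waterlogged time point (36 h) and 46 h, neither of which entered the rule, 164 of the 200 genes rose by the limma test given below, where 38.6% of all genes did. Even so, 139 were lower at 46 h than at 0 h, where 10.4% of all genes were. At 46 h the median gene of the 200 held 12.3% (EG) and 27.3% (R2G) of the mean of its controls at 44 and 48 h. No control was sampled at 36 or 46 h. The control medians of log2(mean TPM + 1) over the 200 genes also differed, with 4.12 at 32 h and 5.09 at 44 h in EG and 4.21 and 5.50 in R2G. Their part in the rise was not tested. The 200 genes are called members in what follows.

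Members had a median W of -3.16, from -5.80 to -2.50, and a median D of -2.83, from -6.36 to -2.003. The medians over the 18178 genes were -0.37 for W and 0.00 for D. At the edge of the rule, LOC105158102, LOC105161077 and LOC105179064 were the last to enter, with W of -2.51, -2.50 and -2.50 and D of -2.97, -2.37 and -2.81. LOC105178091, LOC105157487 and LOC105179525 were the first left out, with W of -2.50, -2.49 and -2.49 and D of -3.88, -3.15 and -2.10. The boundary was thus continuous with the 87 genes that met the thresholds but ranked after them, whose median W was -2.25 and median D was -2.67. Another 127 genes served for comparison, namely those with W of at most -2 and D of at least -0.5, called regained genes here. Their median W was -2.30 and their median D was -0.19.

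In control roots the members were expressed at moderate to high levels. Their mean TPM over the 60 control samples ran from 7.58 to 1708, with a median of 34.7, against 29.0 for regained genes, 16.4 for the 87 next genes and 17.8 for all genes. Their gene spans in the reference annotation of genome v1.0 were shorter, with a median of 2417 bp, against 3294 bp for regained genes and 3615 bp for all genes. Members lay on each of the 16 linkage groups, and linkage group 6 held 36 of them, or 18.0%, against 10.9% of all genes tested. The annotation gives a descriptive name to 15 genes of the table, of which 1 is a member, so roles are unknown for the other members in the sources used here. A total of 13 members overlap another annotated gene, and whether reads were counted by strand is not stated.

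Since TPM values hold no read numbers, sequencing depth is unknown and no counting interval is given. The TPM of a sample summed to between 999095 and 999826. How alike the 3 replicates were was not ranked over the conditions. The summed TPM of the members was 942 ± 162 TPM (mean ± SD, n = 3) in EG at 28 h and 2265 ± 1494 TPM in the wilting plants. The root label was not checked against cell type markers, as no marker of sesame root cells was available in the sources used here. In these bulk samples, fewer cells of a type and less RNA per cell cannot be told apart.

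Taken as a share of all transcripts, the members made up 0.679% to 3.67% of the TPM total in the control samples (median 1.73%, n = 60) and 1.18% to 1.95% at 0 h (median 1.49%, n = 6). During waterlogging their share was 0.0453% to 1.60% (median 0.134%, n = 90). After drainage it was 0.0706% to 0.607% (median 0.162%, n = 36), so that the highest drained sample lay below the lowest control sample. The wilting plants held 0.108%, 0.177% and 0.394%. Within drainage the median share was 0.120% in EG and 0.251% in R2G (18 samples each).

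**Figure D1:**
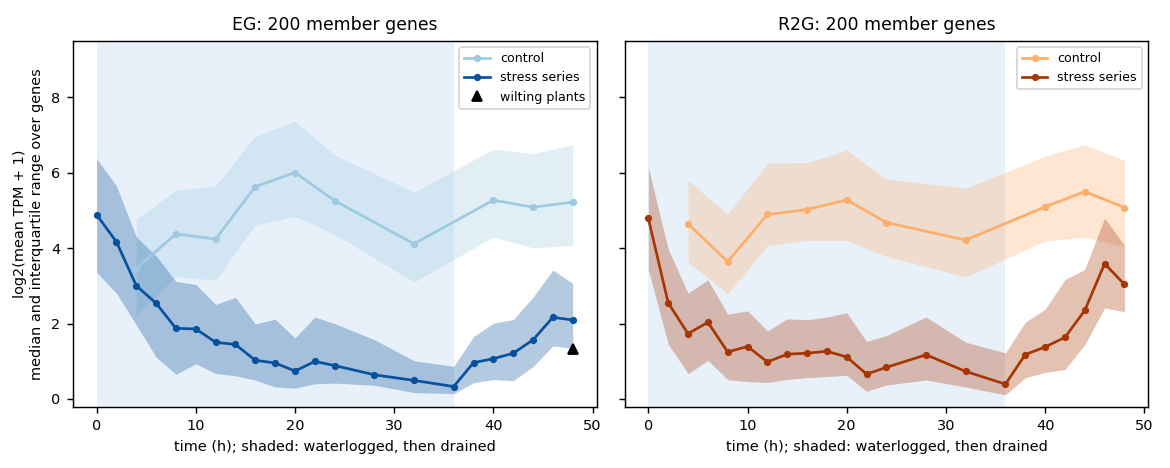
Median and interquartile range over the 200 members of log2(mean TPM + 1), against time in hours, for EG on the left and R2G on the right, with control and stressed plants drawn as separate lines, the waterlogged phase shaded and the wilting EG plants (1.34) as a triangle. The stressed median falls from 4.89 (EG) and 4.79 (R2G) at 0 h to 0.33 and 0.39 at 36 h and then climbs to 2.17 and 3.59 at 46 h, while the control median stays between 3.46 and 6.01.

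The distance from the control opened earlier in R2G than in EG. At 4 h the median difference from the control was -2.75 in R2G and -0.46 in EG, and 148 members in EG but 12 in R2G lay above -1. The controls differed too at this time, with medians of 3.46 in EG and 4.64 in R2G. At 16 h every member lay below -1 in both genotypes, with medians of -4.38 in EG and -3.78 in R2G. The lowest median differences were reached at 20 h in EG (-4.97) and at 12 h in R2G (-3.97). At 32 h the median differences were -3.40 and -3.33, and 149 members in EG and 125 in R2G were under 1 TPM, where the scale can register little further decrease. The control median was 6.01 at 20 h and 4.12 at 32 h in EG, and 4.89 at 12 h and 4.21 at 32 h in R2G. The stressed median was itself lower at 32 h, at 0.49 against 0.74 at 20 h in EG and 0.73 against 0.98 at 12 h in R2G.

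After drainage, the distance from the control became smaller from 40 to 48 h, and more so in R2G. The median difference in EG was -3.69 at 40 h, -3.04 at 44 h and -2.76 at 48 h. In R2G it was -3.61, -2.62 and -1.81 at the same times, when the median over all genes was -0.11, 0.02 and 0.06. At 48 h, 22 members in R2G and 2 in EG were above -1. Counted over single comparisons, 199 members were below the control in all 6 drainage comparisons and 128 in all 14 of waterlogging. These counts follow from the rule and are not evidence of their own.

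**Figure D2:**
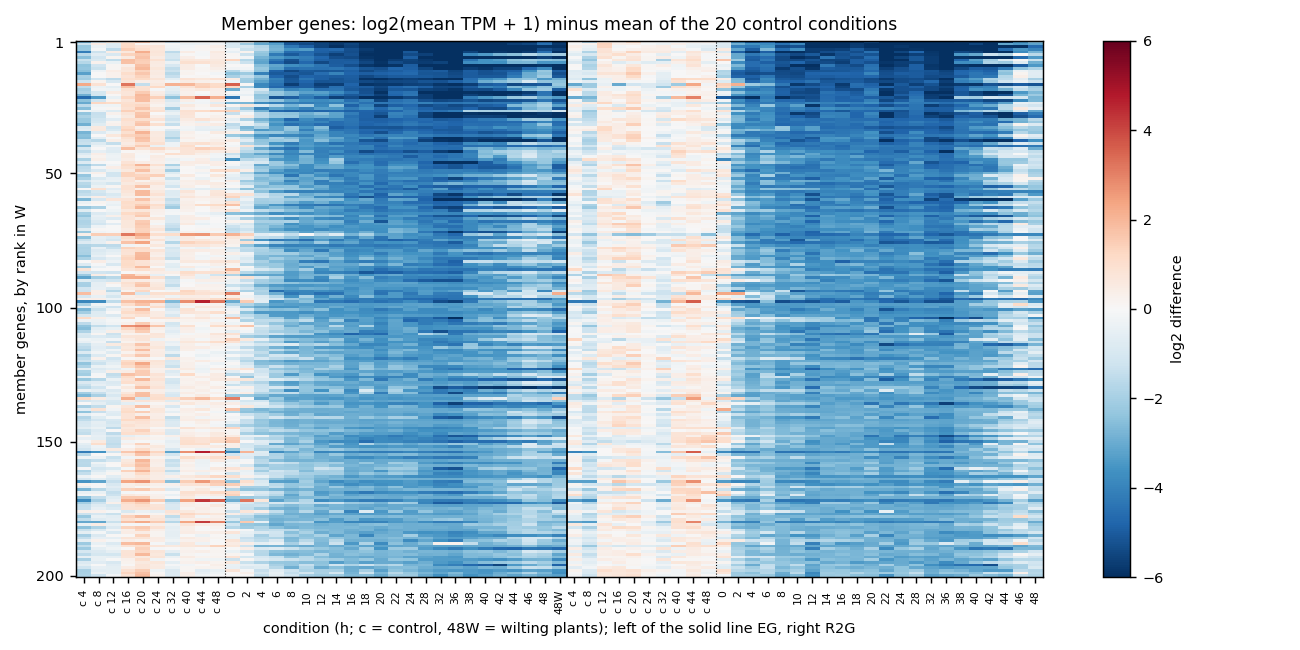
Heat map of the 200 members (rows, by rank in W) over the 65 conditions (columns, EG left and R2G right of the solid line), coloured by log2(mean TPM + 1) minus the mean of the 20 control conditions, with colours capped at 6. Control columns vary with time, the waterlogged columns have their lowest medians at 36 h in both genotypes (0.33 in EG and 0.39 in R2G), and the columns at 46 and 48 h of R2G are paler than those of EG.

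The member with the lowest W (-5.80) was LOC105175982, on linkage group 13 from 323842 to 325659. Its control TPM ran from 6.47 to 727 (median 233, n = 60), its waterlogging TPM from 0 to 201 (median 1.93, n = 90) and its drainage TPM from 0.333 to 59.5 (median 1.86, n = 36). The ranges overlapped, and the highest waterlogging value was found in EG at 2 h. These samples held 186, 95.2 and 201 TPM, whereas the R2G samples of 2 h held 15.1, 21.9 and 5.56 TPM. At 0 h the values were 77.4, 197 and 55.8 TPM in EG and 122, 146 and 75.2 TPM in R2G. At 36 h they were 0.286, 0.398 and 0 TPM in EG and 0, 0.708 and 0.195 TPM in R2G, hence near or at 0 in all 6. At 46 h they were 3.84, 1.85 and 2.20 TPM in EG and 7.27, 19.3 and 19.7 TPM in R2G, and the genotypes did not overlap. From 36 to 46 h its rise was 2.56 on the log2 scale over both genotypes (SE 0.39, adjusted p = 2.9e-09, limma), and at 46 h it stood 3.82 below 0 h (log2 difference -3.82, SE 0.39, adjusted p = 1.0e-15, limma).

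LOC105177883, on linkage group 15 from 4763064 to 4764876, also had a W of -5.80. Its TPM was 45.4 to 814 in control (median 229, n = 60), 0 to 92.6 in waterlogging (median 2.75, n = 90) and 0.154 to 56.4 in drainage (median 2.60, n = 36). At 46 h the EG samples held 3.17, 2.10 and 7.17 TPM and the R2G samples 21.7, 17.4 and 23.9 TPM, so R2G was higher in every sample. LOC105162167, on linkage group 5 from 5163988 to 5173680, had the lowest drainage median of the leading members. Its control TPM was 13.5 to 645 (median 148, n = 60), and its drainage TPM was 0.0714 to 11.3 (median 0.715, n = 36), with 0.337, 1.29 and 1.38 TPM in EG and 0.344, 0.579 and 1.17 TPM in R2G at 46 h. In this gene the genotypes overlapped at 46 h, and none of the drainage samples reached the control range.

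LOC105172878, on linkage group 10 from 16223323 to 16224818, had control TPM of 16.5 to 633 (median 173, n = 60) and waterlogging TPM of 0.0651 to 84.8 (median 2.74, n = 90). Its EG samples at 46 h held 1.21, 1.27 and 1.74 TPM, while those of R2G held 14.3, 13.0 and 15.3 TPM. LOC105164244, on linkage group 6 from 9020073 to 9023766, held 187, 63.5 and 151 TPM in EG at 2 h but 3.48, 4.06 and 1.10 TPM in R2G, and had a drainage median of 1.27 TPM (0.286 to 28.0, n = 36).

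LOC105168770, on linkage group 8 from 14772075 to 14778571, was the sixth in W (-5.11) and came back furthest of the leading members. It went from 113, 101 and 86.8 TPM at 0 h to 0.0716, 0.159 and 0.323 TPM at 36 h in EG, and from 145, 112 and 90.7 TPM to 0.0727, 0.315 and 0.0651 TPM in R2G. At 46 h it held 30.2, 27.8 and 23.7 TPM in EG and 103, 110 and 68.9 TPM in R2G. The 46 h values of R2G thus overlapped its 0 h values (log2 difference -0.30, SE 0.37, adjusted p = 0.53, limma, with a 0 h to 46 h difference of -1.84 and adjusted p = 1.4e-05 in EG). Its D was -2.57, the least low among the leading members.

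**Figure D3:**
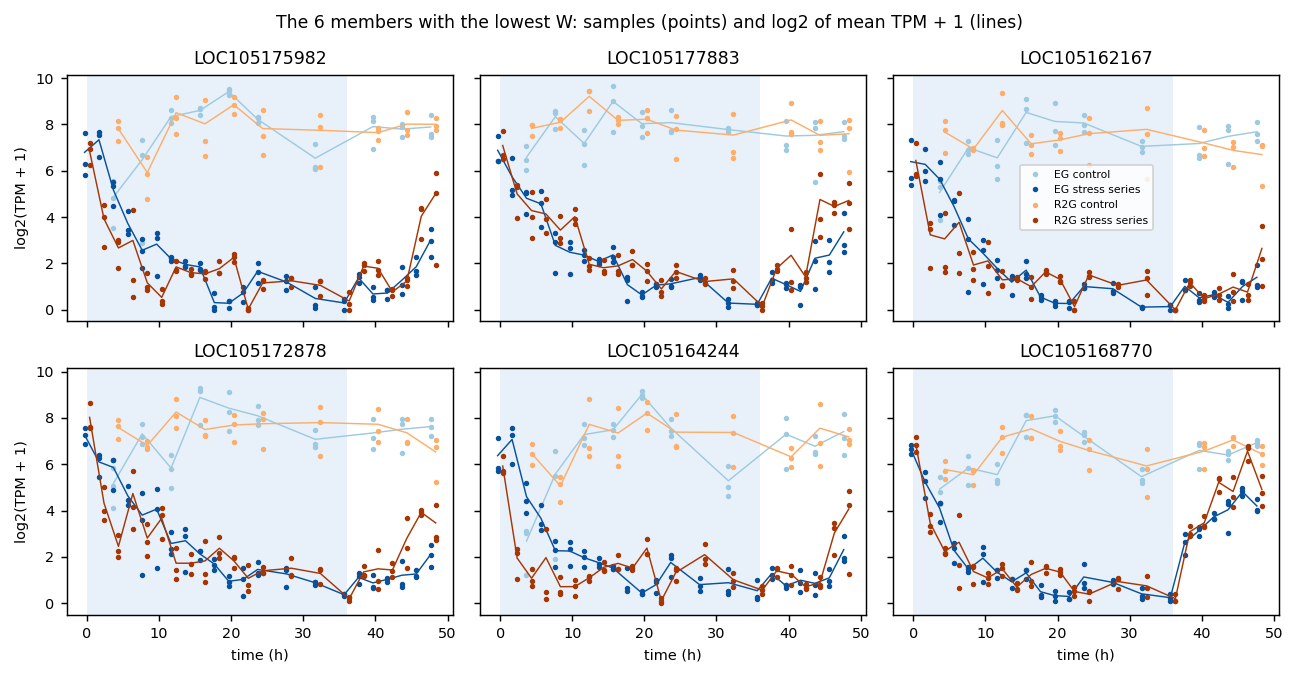
TPM of the 6 members with the lowest W in each sample, as log2(TPM + 1) against time in hours, with points for samples and lines through log2 of the mean TPM + 1, for control and stressed plants of both genotypes. All 6 approach 0 at 36 h; LOC105168770 climbs back to 23.7 to 30.2 TPM in EG and 68.9 to 110 TPM in R2G at 46 h, and LOC105162167 is at or under 1.38 TPM at that time.

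The most abundant members in control were LOC105175619 (mean 1708 ± 684 TPM, SD, n = 60), LOC105178035 (1134 ± 408 TPM), LOC105170410 (1112 ± 647 TPM) and LOC105174448 (803 ± 357 TPM). LOC105175619, on linkage group 12 from 4702193 to 4705127, did not vanish, with waterlogging TPM of 60.2 to 3588 (median 256, n = 90) and drainage TPM of 128 to 659 (median 312, n = 36). Its highest waterlogging values were the EG samples of 2 h, at 3588, 2521 and 1954 TPM, above the 618, 502 and 863 TPM of 0 h. LOC105178035, on linkage group 15 from 6076498 to 6079305, held 196, 60.1 and 144 TPM at 46 h in EG and 69.1, 29.9 and 12.9 TPM in the wilting plants, and these groups overlapped.

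LOC105170410, on linkage group 9 from 3106226 to 3107226, held 1530, 1233 and 1978 TPM in EG at 2 h and 129, 283 and 59.7 TPM in R2G. At 46 h the order of the genotypes was the other way round, at 296, 52.9 and 179 TPM in EG and 336, 709 and 587 TPM in R2G. LOC105174448, on linkage group 11 from 14038054 to 14038970, went from 567 to 994 TPM at 0 h in EG to 0.557 to 1.86 TPM at 36 h, and to 51.7 to 185 TPM at 46 h. In R2G its samples at 36 h held 4.44, 61.8 and 17.7 TPM, so they were higher than those of EG and spread more widely.

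Samples taken at times that have no control of their own were free of the rule, and they were compared with the 0 h samples with limma on log2(TPM + 1), a scale that understates the change of genes with low TPM. Calls required an adjusted p under 0.05 (Benjamini-Hochberg over the 18178 genes) and a log2 difference of at least 1 in size, and "rose" and "fell" below refer to called genes. Counts at an unadjusted p under 0.05, here and below, were made for the members only. They have no share of all genes to be read against, and the shares printed beside them refer to calls. At 2 h against 0 h, averaged over genotypes (6 against 6 samples), 134 of 200 members fell and 8 rose, where 23.1% of all genes fell and 6.3% rose. The median log2 difference was -1.33 over the members and -0.51 over all genes. After median-ratio scaling of the samples, which set the all-gene median at -0.01, 79 members fell and 9 rose (8.92% and 11.6% of all genes), with a member median of -0.82. At 6, 10, 14, 18, 22, 28 and 36 h together, 188 members fell and 0 rose (197 below and 0 above at an unadjusted p under 0.05, limma), where 34.9% of all genes fell and 7.02% rose. The median there was -3.15 against -0.63 over all genes, and it does not account for the hour of sampling, which differs from 0 h. The control medians 24 and 48 h after the 0 h samples were 5.26 and 5.22 in EG and 4.68 and 5.08 in R2G, against 4.89 and 4.79 at 0 h.

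The fall over these later times was largest for LOC105175345, on linkage group 12 from 3305255 to 3307261. Its TPM at 0 h was 385, 347 and 440 in EG and 537, 497 and 482 in R2G, and at 36 h it was 0.358, 0.637 and 0.566 in EG and 0.364, 0.708 and 0.130 in R2G. The log2 difference over the 7 times was -6.92 (SE 0.24, adjusted p = 4.4e-56, limma), and the gene had already fallen by 3.51 at 2 h (SE 0.32, adjusted p = 7.7e-19, limma). LOC105160739, on linkage group 4 from 11254279 to 11257844, showed the largest fall at 2 h. It held 30.6, 16.96 and 37.7 TPM at 0 h and 0.963, 0.906 and 0.525 TPM at 2 h in EG, and 38.5, 42.4 and 46.9 TPM at 0 h and 1.64, 1.86 and 2.30 TPM at 2 h in R2G. All 6 samples of 2 h were below all 6 of 0 h, with a log2 difference of -3.93 (SE 0.25, adjusted p = 1.8e-30, limma), and at 46 h it was still at 0.318 to 1.45 TPM in the 6 samples.

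LOC105172653, on linkage group 10 from 15189541 to 15190288, fell by 6.24 on the log2 scale over the later times (SE 0.59, adjusted p = 1.0e-18, limma). Its replicates at 0 h were far apart in EG, at 14.9, 21.6 and 2170 TPM, and at 2 h in R2G, at 38.6, 760 and 24.2 TPM. At 36 h it held 0, 0 and 0 TPM in EG and 0, 0 and 0.130 TPM in R2G, and at 46 h 0.276 to 1.93 TPM in all 6 samples.

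The pace of the fall differed between the genotypes. Among the 178 members with at least 4 TPM at 0 h in a genotype, 103 were at or below 25% of the 0 h mean by 2 h in R2G and 32 in EG. By 4 h the numbers were 166 and 93, and by 36 h all 178 had reached that level in either genotype. Tested apart, a choice made after the data had been seen, 168 members fell and 0 rose at 2 h in R2G (174 below and 0 above at an unadjusted p under 0.05, limma), where 22.6% of all genes fell and 6.67% rose. In EG 76 fell and 12 rose, where 26.8% of all genes fell and 6.8% rose. The member medians were -1.85 in R2G and -0.65 in EG, and the all-gene medians were -0.43 and -0.57. With median-ratio scaling the EG split became 39 that fell and 28 that rose (10.1% and 13.8% of all genes), with a median of -0.09, and that of R2G 125 and 0 (10.7% and 11.8% of all genes). The 2 lists shared 63 members, which is 63 of the 76 in EG and 63 of the 168 in R2G. The overlap over all genes was not counted, so whether this sharing is particular to the members was not tested.

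The difference between these changes was itself tested. It was positive, meaning a smaller fall or a larger rise in EG, in 84 members and negative in 2, where 5.24% and 6.84% of all genes were called in these directions. Its median was 1.35 over the members, -0.12 over all genes, 0.77 over the 87 next genes and 0.05 over the 127 regained genes, of which 4 were positive and 6 negative. The number of members called depended on single replicates: it was 41 without the samples of replicate 1 and 50 without those of replicate 3. The shares of all genes were 2.5% positive and 7.62% negative without replicate 1, and 3.7% and 4.82% without replicate 3. No control was sampled at 2 h, so the hour of sampling was not separated from waterlogging here.

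**Figure D4:**
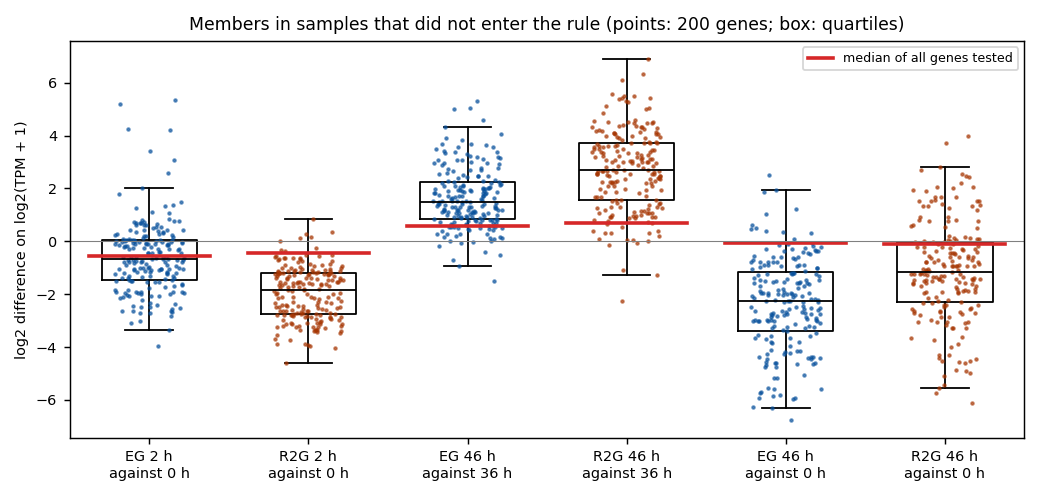
Log2 differences on log2(TPM + 1) of the 200 members in samples outside the rule, 1 point per gene with a box for the quartiles, for EG and R2G at 2 h against 0 h, 46 h against 36 h and 46 h against 0 h. The medians are -0.65 (EG) and -1.85 (R2G) at 2 h, 1.50 and 2.71 from 36 to 46 h, and -2.25 and -1.15 at 46 h against 0 h.

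Members that rose at 2 h in EG included 5 neighbouring genes on linkage group 5, between 18284313 and 18354990, with no other gene of the table between them. LOC105162966 held 2.92, 1.60 and 0.677 TPM at 0 h and 24.3, 97.3 and 451 TPM at 2 h in EG, whereas in R2G it held 1.04, 1.38 and 0.290 TPM and then 0.136, 0.329 and 0 TPM. Averaged over genotypes, its log2 difference of 2.32 was the largest rise among members (SE 0.42, adjusted p = 5.5e-07, limma), and its difference between genotypes was 6.02 (SE 0.85, adjusted p = 1.1e-07, limma). LOC105162918 held 1.44, 0.178 and 0.271 TPM at 0 h and 15.8, 46.6 and 222 TPM at 2 h in EG, against 0, 0.0729 and 0 TPM at 2 h in R2G (difference between genotypes 5.85, SE 0.83, adjusted p = 1.4e-07, limma). The 3 EG samples of 2 h lay above those of 0 h in both genes, but they were spread over more than an order of magnitude, always lowest in replicate 1 and highest in replicate 3.

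The other genes of this stretch were also high in EG at 2 h. LOC105162915, which lies within LOC105162966 so that their reads may not be fully separable, held 60.9, 105 and 472 TPM at 2 h in EG and 0.545, 2.30 and 0.686 TPM in R2G. LOC105162916 held 63.0, 92.7 and 309 TPM in EG and 1.09, 5.84 and 1.44 TPM in R2G. LOC105162919 held 12.1, 21.2 and 82.6 TPM in EG and 0.273, 0.137 and 0.480 TPM in R2G. The largest ranges over time in the control were those of LOC105162915 and LOC105162918. The control time course of LOC105162915 had a range of 8.40 on the log2 scale in EG and 7.80 in R2G, and that of LOC105162918 had ranges of 8.31 and 7.51.

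**Figure D5:**
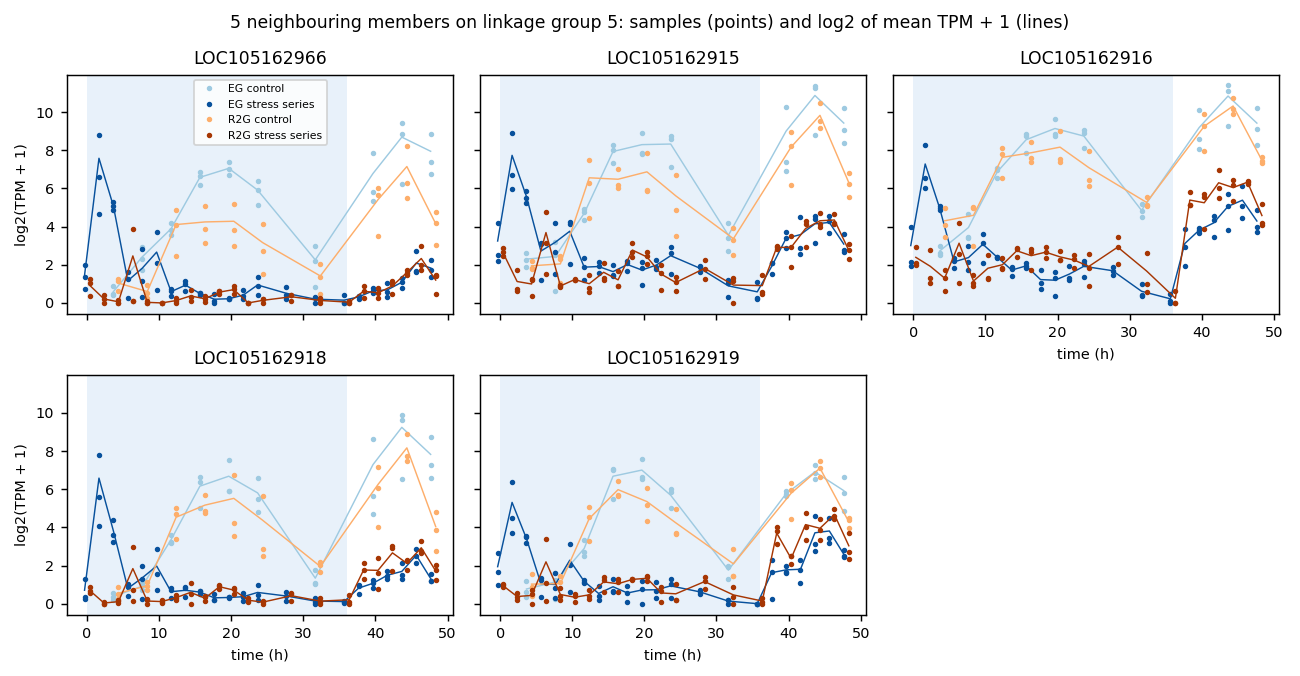
Values of LOC105162966, LOC105162915, LOC105162916, LOC105162918 and LOC105162919 as log2(TPM + 1) against time in hours, with points for samples and lines for log2 of the mean TPM + 1, for control and stressed plants of EG and R2G. The EG samples of 2 h stand apart, at 24.3 to 451 TPM in LOC105162966 and 63.0 to 309 TPM in LOC105162916, and control values of all 5 genes vary widely with time.

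In the first 2 h of drainage the median member went from 0.257 to 0.951 TPM in EG and from 0.313 to 1.26 TPM in R2G, and 100 members in EG and 84 in R2G were under 1 TPM at 38 h. At 38 h against 36 h, averaged over genotypes (6 against 6 samples), 38 of 200 members rose and 1 fell, where 20.7% of all genes rose and 4.55% fell. The median log2 difference was 0.39 over the members and 0.34 over all genes, on a scale that compresses changes under 1 TPM. Of the 127 regained genes 98 rose and 1 fell over the same 2 h, with a median of 2.12, and of the 87 next genes 4 rose and 3 fell. With 0.1 added to TPM in place of 1, 109 members rose and 2 fell (28.3% and 5.74% of all genes), and the median was 1.13 over the members and 0.44 over all genes. The largest rise was that of LOC105162916, from 0, 0.0796 and 0.404 TPM at 36 h in EG, at 3.92 on the log2 scale (SE 0.39, adjusted p = 9.4e-17, limma). LOC105158617, on linkage group 3 from 16917097 to 16919408, rose by 3.20 (SE 0.33, adjusted p = 1.7e-16, limma). LOC105165603, on linkage group 6 from 23290352 to 23293297, was the member that fell, by 1.36 (SE 0.38, adjusted p = 0.00089, limma). It had kept 13.4, 56.4 and 51.0 TPM in EG at 36 h, and in R2G it reached 90.1, 68.3 and 58.7 TPM at 46 h, overlapping its 0 h values of 71.3, 112 and 75.3 TPM.

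By 46 h the greater part of the members had risen. At 46 h against 36 h (6 against 6 samples), 164 of 200 rose and 1 fell, where 38.6% of all genes rose and 7.97% fell. The median rise was 2.07 over the members and 0.66 over all genes. It was 1.25 over the 87 next genes, of which 53 rose, and 3.77 over the 127 regained genes, of which 124 rose. The control medians of the neighbouring times also differed, with 4.12 at 32 h and 5.09 at 44 h in EG and 4.21 and 5.50 in R2G, and their part in these changes was not tested. LOC105175345 rose by 5.61 (SE 0.32, adjusted p = 7.9e-35, limma), to 57.1, 13.1 and 31.9 TPM in EG and 198.4, 138 and 162 TPM in R2G. LOC105162916 rose by 5.57 (SE 0.39, adjusted p = 2.6e-27, limma), to 68.4, 33.0 and 21.1 TPM in EG and 73.8, 84.3 and 80.5 TPM in R2G, which is above its 0 h values. Its 0 h means were low, at 7.04 TPM in EG and 4.25 TPM in R2G, against a mean of 383 TPM over the 60 control samples. At 46 h the gene held only 3.23% (EG) and 10.9% (R2G) of the mean of its controls at 44 and 48 h.

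The member that fell from 36 to 46 h was LOC105164362, on linkage group 6 from 11295078 to 11307746, whose D was -5.56. It held 3.15, 1.83 and 0.808 TPM at 36 h and 0.741, 0.446 and 0.213 TPM at 46 h in EG, and 6.37, 12.6 and 7.95 TPM and then 0.689, 1.74 and 0.828 TPM in R2G. The fall was 1.59 on the log2 scale (SE 0.35, adjusted p = 1.7e-05, limma), and the samples of the 2 times did not overlap within either genotype. Its control TPM was 5.35 to 355 (median 92.1, n = 60), so its drainage maximum of 6.32 TPM lay barely above the control minimum.

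The rise did not bring most members back to the start. At 46 h against 0 h, a comparison added after the data had been seen, 139 members were lower and 7 higher, where 10.4% of all genes were lower and 5.8% higher. The median was -1.62 over the members, -0.09 over all genes, -1.78 over the 87 next genes and 0.42 over the 127 regained genes, of which 3 were lower and 40 higher. In EG 151 were lower and 3 higher (11.5% and 6.32% of all genes), and in R2G 105 were lower and 26 higher (10.2% and 6.4% of all genes). At 46 h the median member with at least 4 TPM at 0 h stood at 13.9% of its 0 h mean in EG and at 35.2% in R2G. Of the 178 such members in each genotype, 6 in EG and 31 in R2G reached the level of 0 h or more, and 68 and 27 were under 10% of it. Set against the mean of the controls at 44 and 48 h, the medians over all 200 members were 12.3% and 27.3%, and 3 of the 200 in EG and 61 in R2G held 50% or more. These percentages were computed for the members only, without a share of all genes. All 3 samples of 46 h lay below all 3 of 0 h in 153 members in EG (28.9% of all genes) and 119 in R2G (31.8%).

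R2G stood above EG in drainage. Tested within genotypes after the data had been seen, 135 members rose and 1 fell from 36 to 46 h in EG (36.1% and 7.98% of all genes), with a median of 1.50. In R2G 168 rose and 2 fell (40.8% and 8.52% of all genes), with a median of 2.71. The difference of the 2 changes was called in 42 members, always with the smaller rise in EG, and in 0 with the larger (88 and 3 at an unadjusted p under 0.05, limma), where 1.95% and 0.451% of all genes were called. Its median was -1.10 over members and -0.09 over all genes. Without the samples of replicate 2 no member was called (65 at an unadjusted p under 0.05, limma), and without those of replicate 3 the count was 22. Few genes of any kind were called without replicate 2, with 0.033% of all genes negative and 0.0165% positive. Without replicate 3 the shares of all genes were 1.28% and 0.286%.

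Averaged over 38, 42 and 46 h, times that the rule did not use, EG was lower than R2G in 53 members and higher in 1, where 1.95% of all genes were lower and 1.57% higher. The median difference was -0.66 over the members, -0.09 over all genes, -0.37 over the next genes and -0.59 over regained genes, of which 19 were lower. LOC110012114, on linkage group 6 from 5999248 to 6002541, had the largest difference, at -2.47 (SE 0.21, adjusted p = 1.3e-19, limma). At 46 h it held 13.1, 3.31 and 9.29 TPM in EG and 61.8, 53.2 and 55.1 TPM in R2G. At 0 h it had held 33.8, 43.7 and 29.1 TPM in EG and 52.2, 49.3 and 53.5 TPM in R2G. The R2G samples of 46 h overlapped those of 0 h, and the EG samples of 46 h lay below all those of 0 h. At 2 h it held 73.5, 76.2 and 42.52 TPM in R2G and 20.4, 12.3 and 18.7 TPM in EG. LOC105162916 was lower in EG by 1.87 (log2 difference -1.87, SE 0.32, adjusted p = 2.3e-06, limma).

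The single member that was higher in EG was LOC105172091, on linkage group 10 from 5165111 to 5168369, and it was higher in every phase. The log2 difference was 3.59 in control (SE 0.15, adjusted p = 1.3e-47, limma), 2.50 in waterlogging at the times outside the rule (SE 0.17, adjusted p = 5.0e-28) and 1.85 in drainage (SE 0.27, adjusted p = 4.2e-08). At 0 h it held 135, 222 and 94.7 TPM in EG and 24.1, 37.4 and 8.62 TPM in R2G, and at 46 h 17.7, 3.28 and 11.4 TPM in EG and 1.17, 1.96 and 0.581 TPM in R2G. The genotypes did not overlap at either time.

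Few members were called between the genotypes in control or in waterlogging. Over the 10 control times, 9 members were higher in EG and 0 lower (34 and 25 at an unadjusted p under 0.05, limma), where 0.479% of all genes were higher and 0.407% lower, and the median difference was -0.05. These control samples, like those of the 2 interactions below, entered the rule, and a gene that is high in the control of 1 genotype can enter the list through it. The counts are therefore not independent of the choice of members. LOC105172653 was among them, with a log2 difference of 2.54 (SE 0.35, adjusted p = 1.4e-09, limma). In waterlogging at 2, 6, 10, 14, 18, 22, 28 and 36 h, 6 members were higher in EG and 0 lower (86 and 15 at an unadjusted p under 0.05, limma), where 0.616% of all genes were called higher and 0.446% lower, with a median of 0.20. All genes were not counted at the unadjusted threshold. That count was 23 without the 28 h samples, where 0.776% of all genes were higher and 0.473% lower. It was 2 without those of replicate 3, where the shares were 0.561% and 0.446%. After LOC105172091 the largest of these was LOC105172100, on linkage group 10 from 5371113 to 5371958, at 1.25 (SE 0.19, adjusted p = 5.2e-08, limma), with 146, 52.1 and 44.7 TPM in EG and 3.34, 4.49 and 2.13 TPM in R2G at 2 h.

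The interaction of genotype with the waterlogging effect of the rule was called in 14 members, 2 positive and 12 negative, where 0.611% and 0.402% of all genes were called in these directions. The median over members was 0.22, with 66 positive and 27 negative at an unadjusted p under 0.05. The balance of calls turned to 16 positive and 11 negative with a pseudocount of 0.1 (1.14% and 0.875% of all genes). It was negative in LOC105172653 (-3.37, SE 0.59, adjusted p = 1.3e-05, limma), where the control was higher in EG, and in LOC105166205 (-2.69, SE 0.42, adjusted p = 9.0e-07), on linkage group 7 from 4351820 to 4354680. It was positive, hence a smaller decrease in EG, in LOC105164244 (1.21, SE 0.31, adjusted p = 0.0032) and LOC105166647 (1.02, SE 0.28, adjusted p = 0.0068), on linkage group 7 from 7883756 to 7893878. At 2 h, which is not part of that contrast, LOC105166647 held 66.8, 33.8 and 63.4 TPM in EG and 8.04, 13.3 and 3.16 TPM in R2G. For drainage at 40, 44 and 48 h, the interaction was negative in 7 members and positive in 0 (74 and 1 at an unadjusted p under 0.05, limma), where 0.171% and 0.088% of all genes were called, with a median of -0.57. The lowest values were those of LOC105162918 (-2.09, SE 0.48, adjusted p = 0.016) and LOC105162966 (-2.07, SE 0.49, adjusted p = 0.021). No member was called when replicate 2 was left out (20 at an unadjusted p under 0.05, limma) or when the model held the compared samples only (59). Few genes of any kind were called in these fits. The shares of all genes were 0.0275% in each direction without replicate 2, and 0.0495% negative and 0.066% positive with the compared samples only.

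The EG plants marked as wilting at 48 h, which the study describes as dead, had lower levels of many members. Against EG at 46 h (3 against 3 samples), 54 members were lower and 2 higher, where 4.78% of all genes were lower and 0.88% higher, and the median difference was -0.84 over members, -0.12 over all genes and -0.92 over regained genes, of which 53 were lower. This rested on the spread shared by all 195 samples and on replicate 3. With those samples left out 2 members were called, and with the 6 compared samples alone 0 (64 at an unadjusted p under 0.05, limma). In the first of these fits 0.22% of all genes were lower and 0.11% higher, and in the second 0% were called in either direction. Against the surviving EG plants at 48 h, which entered the rule, 42 were lower and 4 higher (2.67% and 2.36% of all genes), with a median of -0.65 and a count of 21 with the compared samples alone. The count was 21 without replicate 2, 10 without replicate 3 and 76 without replicate 1. In the same order, 0.776%, 0.187% and 7.23% of all genes were lower and 0.897%, 0.253% and 5.33% higher. With the compared samples alone 0.341% were lower and 0.149% higher.

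LOC110011607, on linkage group 2 from 9073494 to 9075911, held 17.9, 4.84 and 11.5 TPM in EG at 46 h and 0.736, 1.15 and 1.16 TPM in the wilting plants (log2 difference -2.47, SE 0.48, adjusted p = 0.00020, limma). LOC105171614, on linkage group 10 from 1783715 to 1784678, held 14.2, 5.98 and 9.58 TPM and then 0.335, 1.83 and 0.645 TPM (-2.50, SE 0.59, adjusted p = 0.0017). In both genes the wilting samples lay below all those of 46 h. Against the surviving plants, the largest decreases were those of LOC110012112, on linkage group 6 from 9191377 to 9194167 (-2.99, SE 0.61, adjusted p = 0.00029), and LOC105170503, on linkage group 1 from 16430774 to 16439679 (-2.89, SE 0.59, adjusted p = 0.00031).

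A few members went the other way. LOC105163909, on linkage group 6 from 6655746 to 6663339, held 25.2, 35.1 and 28.3 TPM in the wilting plants and 5.66, 1.46 and 1.77 TPM in EG at 46 h (log2 difference 3.08, SE 0.82, adjusted p = 0.0055, limma). LOC105166205 held 204, 141 and 29.7 TPM in the wilting plants and 13.3, 14.6 and 4.61 TPM at 46 h (3.16, SE 0.79, adjusted p = 0.0034). The groups did not overlap in either gene. Both also had 1 sample of EG at 0 h far above the others, replicate 3, with 276 TPM against 5.74 and 8.91 TPM in LOC105163909 and 518 TPM against 74.1 and 64.2 TPM in LOC105166205.

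Members varied with time in the control itself. The controls tested here are those from which the rule took its differences, and a high control level lowers W, so the counts are not independent of the choice of members and are given as a description. In EG control, 189 of 200 members were called by a moderated F test of limma over the 10 times, with at least 1 between the highest and the lowest mean, where 44.7% of all genes were called. The median range was 3.18 on the log2 scale. In R2G control 162 were called, where 30.9% of all genes were, with a median range of 2.29. This count was 79 without replicate 2 and 103 without replicate 3 (22.6% and 23.4% of all genes). Among the 87 next genes, 84 passed in EG control and 70 in R2G control, and their median ranges were 2.53 and 2.12. For the 127 regained genes the numbers were 89 in EG and 96 in R2G, with median ranges of 1.44 and 1.42. The highest control mean was at 20 h for 114 members in EG and 66 in R2G, and the lowest was at 4 h for 139 in EG and at 8 h for 132 in R2G. The median over members in EG control was 3.46 at 4 h, 4.38 at 8 h, 6.01 at 20 h, 4.12 at 32 h and 5.09 at 44 h. The times of the highest and lowest means were counted for the members only. In EG control the median over the 87 next genes was likewise lowest at 4 h (2.70) and highest at 20 h (4.91). That over the regained genes was lowest at 12 h (4.24) and highest at 16 h (5.27), and that over all genes ran from 3.98 at 12 h to 4.34 at 20 h.

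Some members lay next to each other. Of 197 members placed on a linkage group, 32 (16.2%) lay in 12 runs of neighbouring members. Among the regained genes, a smaller set with 124 placed, 10 (8.06%) lay in 5 runs. Whether either share exceeds that of other sets of the same size was not tested. Besides the 5 genes of linkage group 5 there were 2 runs of 4, a run of 3 and 8 pairs. On linkage group 4, between 417501 and 428368, the run of LOC105159672, LOC105159674, LOC105159675 and LOC105159676 had W from -4.83 to -3.23. LOC105159675 held 6.03, 0.605 and 1.92 TPM in EG and 18.9, 55.2 and 39.7 TPM in R2G at 46 h, and LOC105159676 held 9.56, 0.827 and 4.40 TPM and 28.9, 82.8 and 58.0 TPM. In both genes, as in LOC105159674 (3.64, 0.700 and 0.709 TPM against 17.5, 49.95 and 29.7 TPM) and LOC105159672 (2.93, 0.0636 and 0.639 TPM against 7.96, 21.9 and 16.8 TPM), every R2G sample was above every EG sample, and replicate 2 was the lowest in EG and the highest in R2G. Whether neighbouring members are near-identical copies was not tested, and reads shared by such copies could not be assigned to either.

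On linkage group 6, between 9020073 and 9034872, LOC105164244, LOC105164245 and LOC105164159 had W of -5.12, -5.00 and -5.09 and D of -5.40, -6.36 and -6.08. LOC105164245 was the most abundant, with control TPM of 17.7 to 1366 (median 385, n = 60), waterlogging TPM of 0.350 to 645 (median 9.09, n = 90) and drainage TPM of 0.909 to 68.8 (median 3.11, n = 36). At 46 h it held 3.67, 1.98 and 1.66 TPM in EG and 6.96, 13.3 and 15.4 TPM in R2G. LOC105164159 held 3.00, 0.955 and 1.77 TPM and 5.72, 8.38 and 11.5 TPM. The run of LOC105164261, LOC105164264, LOC105164265 and LOC105164176 lay on the same linkage group between 9273759 and 9292871, with mean control TPM of 365, 135, 26.2 and 12.3. At 46 h LOC105164261 held 7.21, 2.10 and 6.03 TPM in EG and 15.0, 36.1 and 35.6 TPM in R2G, so R2G was again the higher in every sample.

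The member with a descriptive name in the annotation was FAD2 (LOC105163532), on linkage group 6 from 3251503 to 3254664, and it was singled out for that name after its values had been seen. FAD2 encodes the oleate desaturase of the endoplasmic reticulum, an enzyme that uses oxygen to turn oleic into linoleic acid in membrane and storage lipids. It ranked 194th, with a W of -2.53 and a D of -2.75. Its control TPM was 2.02 to 37.0 (median 16.1, n = 60), its waterlogging TPM 0.0716 to 25.6 (median 1.89, n = 90) and its drainage TPM 0.278 to 7.60 (median 0.949, n = 36). At 2 h it moved in opposite directions in EG and R2G. In EG it rose from 4.33, 9.80 and 4.61 TPM at 0 h to 18.1, 10.1 and 25.6 TPM at 2 h (log2 difference 1.37, SE 0.42, adjusted p = 0.0028, limma). In R2G it fell from 9.26, 12.8 and 6.52 TPM to 3.14, 5.97 and 1.99 TPM (log2 difference -1.21, SE 0.42, adjusted p = 0.0097), and the difference between genotypes was 2.58 (SE 0.60, adjusted p = 0.00069). The difference kept its call under every alternative run, but the rise in EG was not called without replicate 1 or 3 (adjusted p = 0.063 and 0.074), nor the fall in R2G without replicate 1 or after median-ratio scaling (adjusted p = 0.070 and 0.13). At 46 h it held 1.55, 0.573 and 2.34 TPM in EG and 2.96, 4.41 and 6.24 TPM in R2G, and in the wilting plants 0.268, 0 and 0.387 TPM. From 36 to 46 h its log2 difference was 0.81 (SE 0.30, adjusted p = 0.010), under the size that was called, and at 46 h it was lower than at 0 h by 1.23 (log2 difference -1.23, SE 0.30, adjusted p = 0.00023). Without replicate 2 the latter was -0.81 (adjusted p = 0.063).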

How the data were processed

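RNA was sequenced from roots of both genotypes in 65 conditions with 3 replicates each. According to the study's methods and the labels, the authors cleaned the reads with FastQC and Trimmomatic 0.32, aligned them to sesame genome v1.0 with STAR, counted uniquely matched reads per gene with featureCounts, and deposited them as TPM, in which counts are divided by gene length and scaled to a fixed total per sample. Tests that need counts were not run. The gene identifiers (20271 of 20271) were matched by gene number to the RefSeq annotation of that genome, S_indicum_v1.0, whose coordinates, counted from 1, are printed. Protein groups, protein and promoter features and sequences were not analysed here.

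Members were chosen by the rule given above, and the members and all lists were chosen with earlier results of these data known. Named are the 6 lowest in W, the 4 most abundant in control, the 3 genes on either side of the limit, up to 2 members per direction and test with the largest called change (for the tests of control time, the 2 largest ranges), and, after seeing the data, the gene with a descriptive name and members of the longest runs of neighbours.

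Tests used limma 3.58.1 in R 4.3.3 on log2(TPM + 1), with an intensity trend, 1 model over the 65 conditions and Benjamini-Hochberg adjustment over 18178 genes; control time was tested within each genotype by a moderated F test. The study describes a randomized block design with 3 replicates, and whether the replicate numbers are its blocks is not stated. Samples of the same replicate number did not deviate together on average (mean correlation 0.0152 over 6240 pairs of conditions, against -0.00761 for different numbers), so the numbers were not used as pairs. Single pairs ran from -0.724 to 0.687, and 1818 of the 6240 were over 0.1, against 3016 of 12480, so a shared deviation at some times is not excluded. Each p-value measures the spread between single plants from separate pots. As alternatives, 0.1 was added to TPM in place of 1, genes of low TPM were kept, samples were scaled by the median ratio, the replicate number entered as a block, each replicate was left out, and the model was fitted to other samples. Tests of 2, 36 and 46 h within a genotype, of their difference and of 46 h against 0 h were added after seeing the data, as was leaving out 28 h. The tests were checked on simulated data. Summaries and figures were made in Python 3.11.15 with numpy 2.4.6, pandas 2.3.3 and matplotlib 3.10.9.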

Additional observations from a re-analysis of the deposited data

Results flagged for a closer look

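Several results differed between the genotypes by a test of the difference itself (EG minus R2G, limma). The change from 0 to 2 h differed in 86 members (84 positive, 2 negative), where 5.24% and 6.84% of all genes were called in these directions. The change from 36 to 46 h differed in 42 members, all negative, where 1.95% of all genes were negative and 0.451% positive. The waterlogging effect over the 7 time points of the rule differed in 14 members (2 positive, 12 negative), where 0.611% and 0.402% of all genes were called in these directions. The drainage effect over its 3 time points differed in 7 members, all negative, where 0.171% of all genes were negative and 0.088% positive. The samples of the waterlogging and drainage effects entered the rule, so these counts are not independent of the choice of members. The same holds for the single genes that follow. Among single genes, the waterlogging effect differed by 1.21 (SE 0.31) in LOC105164244, by 1.02 (SE 0.28) in LOC105166647, by -3.37 (SE 0.59) in LOC105172653 and by -2.69 (SE 0.42) in LOC105166205 on the log2 scale. The drainage effect differed by -2.09 (SE 0.48) in LOC105162918 and by -2.07 (SE 0.49) in LOC105162966. LOC105164244 was not called without replicate 1, LOC105166647 without replicate 1 or 2, and the 2 drainage differences without replicate 2 or 3, with a pseudocount of 0.1 or with the compared samples alone. No test for a single sample apart from its group was made, since every group had 3 samples.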

How the results depend on the processing

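Of 184 alternatives for 23 counts of members, 155 stayed within 1.5 times, and 11 counts did so under every alternative run, the rise from 36 to 46 h in both genotypes and the fall over later waterlogging among them. With a pseudocount of 0.1 the rule kept 127 members among its 200 lowest. Shares of all genes called higher and lower are given in brackets. Under that pseudocount the members called numbered 111 at 38 h against 36 h (28.3% and 5.74%) and 24 for EG against R2G in waterlogging (1.02% and 0.853%). They numbered 88 for EG against R2G in drainage (2.26% and 3.73%) and 74 for wilting against surviving plants (3.01% and 3.48%). The waterlogging interaction had 27, of which 16 were positive and 11 negative (1.14% and 0.875%). Median-ratio scaling gave 88 at 2 h against 0 h (11.6% and 8.92%) and 13 for EG against R2G in waterlogging (0.71% and 0.473%). Leaving out 28 h gave 23 for the latter (0.776% and 0.473%). With the compared samples alone the counts were 0 for the drainage interaction (59 at an unadjusted p under 0.05), 0 and 21 for wilting plants against 46 h (64 at an unadjusted p under 0.05) and against survivors, and 15 for the difference between genotypes from 36 to 46 h. In these fits the shares of all genes called higher and lower were, in the same order, 0.066% and 0.0495%, 0% and 0%, 0.149% and 0.341%, and 0.0495% and 0.325%. Leaving out each replicate gave 2 to 20 for EG against R2G in waterlogging (0.561% to 0.836% and 0.44% to 0.605%). The interactions with waterlogging and drainage had 9 to 16 (0.358% to 0.655% and 0.352% to 0.457%) and 0 to 6 (0.0275% to 0.127% and 0.0275% to 0.182%). Time in R2G control had 79 to 131 (22.6% to 26.7% called). Wilting plants had 2 to 59 against 46 h (0.11% to 1.14% and 0.22% to 8.94%) and 10 to 76 against survivors (0.253% to 5.33% and 0.187% to 7.23%). The differences between genotypes had 41 to 89 at 2 h (2.5% to 4.07% and 4.43% to 7.62%) and 0 to 40 from 36 to 46 h (0.0165% to 1.46% and 0.033% to 2.67%). The 2 counts of 0 came without replicate 2. In those fits 0.0275% of all genes were called in each direction for the drainage interaction, and 0.0165% were positive and 0.033% negative for the change from 36 to 46 h. The cause of these changes was not tested. The replicate block changed no call count by over 1.5 times. It gave 142 members at 2 h against 0 h (6.3% and 23.1%) and 165 at 46 h against 36 h (38.6% and 7.97%). For time in EG and R2G control it gave 191 (44.8% called) and 168 (31.1%). Of 300 alternatives for 37 tests of named genes, 278 kept the call, 22 lost it and 0 reversed it. Levels under about 1 TPM limit how far a further fall can be seen.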
